A study of Mus musculus with 8 samples.

Results

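Desmosome and plakin genes were followed in mouse embryonic fibroblasts (MEFs) during the first days of reprogramming. The genes were *Dsp*, *Ppl* and *Evpl* (plakins), *Jup*, *Pkp1*, *Pkp2* and *Pkp3* (armadillo proteins), *Dsg2* and *Dsc2* (desmosomal cadherins) and *Perp* (a tetraspan protein). These 10 genes were chosen by their symbols among the 18990 genes of the deposited table. All 10 had a mean of at least 1 CPM (read count per gene, scaled to the size of the library) over the 8 libraries and were tested among the 13866 genes above that level.

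The MEFs were wild-type BL6 cells, reprogrammed at passage 2. In all groups the cells carried the tet-STEMCCA (OSKM) and rtTA lentiviruses, each added at an MOI of 1, so that OCT4, SOX2, KLF4 and c-MYC were expressed after addition of doxycycline. All cells received a pool of 3 siRNAs at 40 nM against either *Ncor1* or *Oct4*. They were kept in medium with 2 µg/mL doxycycline, 3 µM chiron (a GSK3 inhibitor), 0.25 µM Alk5i (a TGFβ inhibitor), 50 µg/mL ascorbic acid and LIF. The 4 groups were *siNcor1* at day 3, *siOct4* at day 3, *siNcor1* at day 6 and *siOct4* at day 6, with 2 biological replicates each, by the series' design text. The OSKM cassette comes from a virus, so the number of cells that carry it, and the number of copies per cell, can vary. Libraries of a non-targeting control were not used, so that all differences below are between the knockdowns or between the days.

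Desmosomes are cell junctions that couple neighbouring cells and anchor their keratin filaments. Desmosomal cadherins (desmogleins and desmocollins) bridge the gap between the cells, plakoglobin (*Jup*) and the plakophilins bind their tails, and desmoplakin (*Dsp*) ties the complex to intermediate filaments. Fibroblasts hold few such junctions, whereas reprogramming fibroblasts pass through a mesenchymal-to-epithelial transition in which E-cadherin (*Cdh1*), the cadherin of adherens junctions, appears early. *Cdh1* is therefore given beside the desmosome genes throughout.

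The libraries held between 7735742 and 16445192 reads on genes, with the lowest in *siOct4* day 3 replicate 2. A gene with 3 reads had between 0.174 and 0.380 CPM. *Pou5f1*, the gene of OCT4, measured 7.63 and 7.68 log2-cpm (log2 of the CPM) with *siNcor1* and 7.53 and 7.62 with *siOct4* at day 3, and 7.55 and 7.32 against 9.45 and 8.97 at day 6. It did not differ beyond the replicate spread between the knockdowns at day 3 (log2 fold change −0.08, limma adjusted p = 0.941) and was higher in the libraries labelled *siOct4* at day 6 (1.78, adjusted p = 0.000109). These libraries are therefore called by their label. *Ncor1* measured 7.08 and 7.20 with *siNcor1* and 7.82 and 7.94 with *siOct4* at day 3, and 7.26 and 7.28 against 7.33 and 7.13 at day 6. It was lower in *siNcor1* at day 3, where the libraries labelled *siOct4* were higher by 0.74 (adjusted p = 0.0139), and not at day 6 (−0.04, adjusted p = 0.815). *Gm26917*, a non-coding gene, took 15.5% to 16.6% of the reads at day 3 and 20.3% to 29.1% at day 6. In bulk libraries such as these, fewer cells with a transcript and less of it in each cell cannot be told apart.

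The promoters of *Dsp* and *Jup* are shown because these were the 2 of the 10 genes matched in the RefSeq promoter table (GRCm38.p6). Their products sit next to each other in the desmosomal plaque. Their differences between the knockdowns at day 6 had opposite signs, and that of *Dsp* did not pass the threshold. The stretches below are the 250 bases before the transcription start, 5′ to 3′ along the gene, on the forward strand at chr13:38151044-38151293 for *Dsp* and on the reverse strand at chr11:100397791-100398040 for *Jup*. Capitals mark GGGCGG, the GC-box letters bound by SP and KLF factors, on either strand.
Dsp: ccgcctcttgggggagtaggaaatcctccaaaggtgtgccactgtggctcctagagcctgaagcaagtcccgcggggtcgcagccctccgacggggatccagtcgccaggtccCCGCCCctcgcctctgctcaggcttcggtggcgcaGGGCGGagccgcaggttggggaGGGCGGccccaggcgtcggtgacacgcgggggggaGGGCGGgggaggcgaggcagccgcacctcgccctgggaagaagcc
Jup: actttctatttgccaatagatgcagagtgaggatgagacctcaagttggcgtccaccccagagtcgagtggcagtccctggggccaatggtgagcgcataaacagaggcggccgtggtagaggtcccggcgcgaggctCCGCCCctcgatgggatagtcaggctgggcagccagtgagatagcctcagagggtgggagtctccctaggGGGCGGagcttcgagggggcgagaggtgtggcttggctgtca
*Dsp* held 4 matches, starting 137, 102, 80 and 45 bases before the start, and *Jup* held 2, starting 112 and 42 bases before it. Such a match was present in 35.7% of the 32851 mouse promoters of this length, which here run from 250 bases before to 50 after the start. The E2-box CACCTG, known as a site of SNAI and ZEB repressors, matched once in *Dsp*, starting 3 bases after the start, and not in *Jup*, against 20.2% of promoters. The letters CACGTG (7.15% of promoters), ACCGGTT (1.02%) and ATGCAAAT (1.74%) were in neither window, searched on both strands. The *Dsp* window had a GC content of 73.0% and 27 CpG dinucleotides, and the *Jup* window 60.7% and 14, against medians of 52.7% and 7 over all promoters. The RefSeq start of *Dsp* is that of its GENCODE model, whereas the *Jup* start lies upstream of its GENCODE starts. These matches are descriptions of the letters and no binding was measured.

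The desmosome genes differed between the knockdowns in both directions at day 6. In the libraries labelled *siOct4*, 5 of the 10 genes were lower than in *siNcor1* (*Ppl*, *Jup*, *Pkp3*, *Dsg2* and *Perp*) and 1 was higher (*Pkp2*), by limma with Benjamini-Hochberg adjusted p under 0.05. Over all tested genes, 18.6% were lower and 12.1% were higher. *Pkp3* reached the minimum of 1 CPM only through *siNcor1* at day 6 (mean over the other 3 groups 0.859 CPM), so that its place among the lower genes was in part set by the filter, and its call was kept in a fit without one. *Cdh1* was lower as well, so 5 genes moved in its direction and 1 moved against it. *Dsp*, *Pkp1* and *Evpl* had higher means and *Dsc2* a lower mean, and these 4 did not pass the threshold. Without overlap of the libraries, 6 of the 10 genes were lower and 3 were higher. Among all tested genes, 64.7% had no overlap in either direction at day 6. The median log2 fold change of the 10 genes was −0.36, beside −0.03 over all genes tested. The summed level of the 10 genes was 545 to 569 CPM in the *siNcor1* libraries and 538 to 544 CPM in those labelled *siOct4*.

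**Figure D1:**
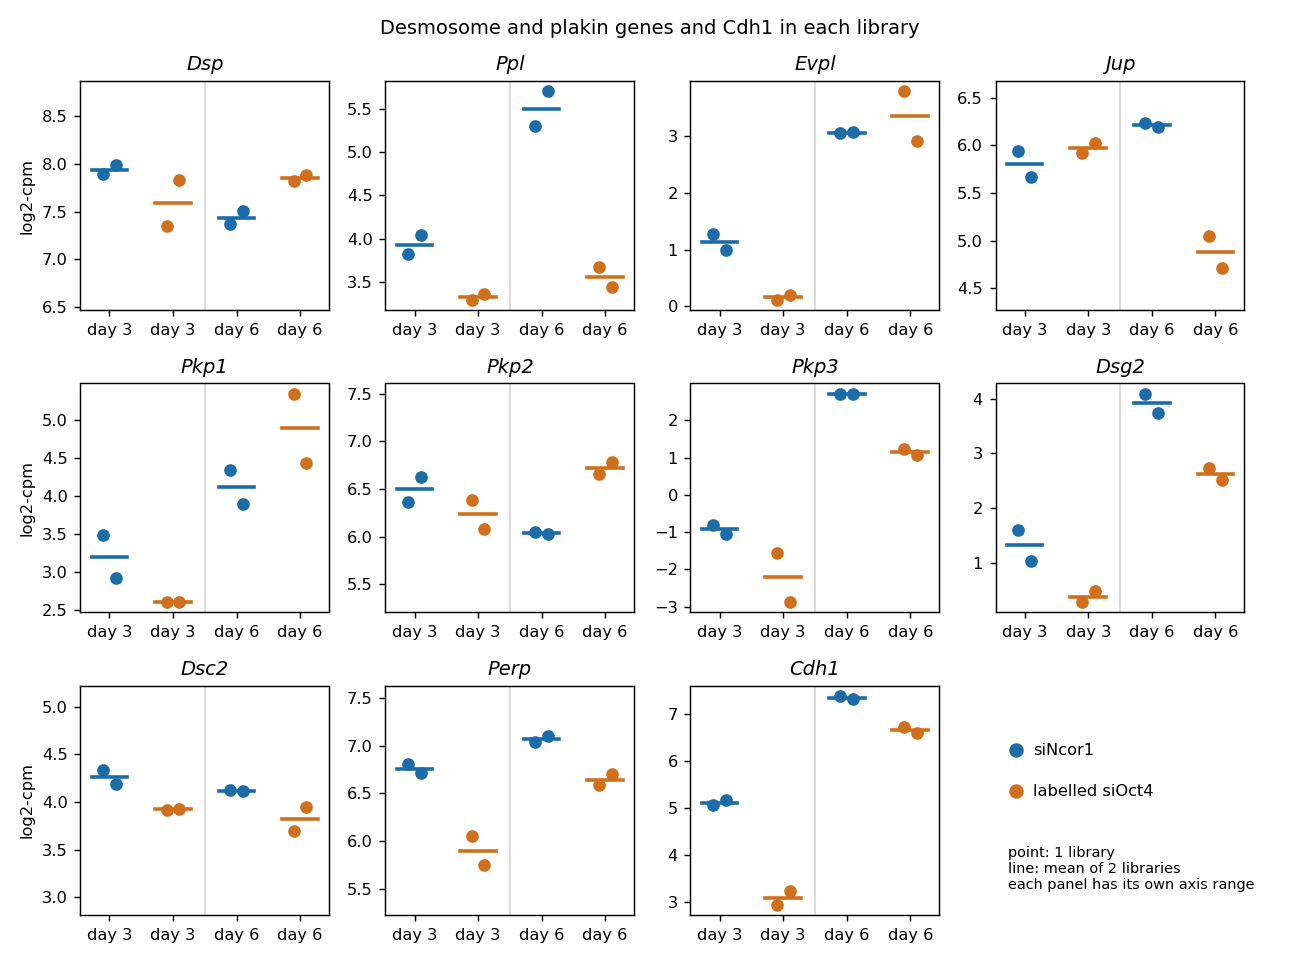
Level of each desmosome and plakin gene and of *Cdh1* (last panel) in log2-cpm (log2 of the CPM) in each of the 8 libraries. Each point is 1 library, each line is the mean of 2, blue is *siNcor1*, orange is the libraries labelled *siOct4*, and each panel has its own axis range. At day 6 the orange points lie below the blue ones for *Ppl*, *Jup*, *Pkp3*, *Dsg2*, *Dsc2*, *Perp* and *Cdh1* and above them for *Dsp*, *Pkp1* and *Pkp2*. Such a lack of overlap at day 6 was found for 64.7% of all tested genes.

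*Cdh1* (chromosome 8, 106603351 to 106670246 of mm10) is given first, as the reference. It measured 5.05 and 5.15 log2-cpm in the *siNcor1* libraries and 2.94 and 3.23 in those labelled *siOct4* at day 3. Its day 6 levels were 7.37 and 7.31 in the *siNcor1* libraries and 6.71 and 6.60 in those labelled *siOct4*. The *siNcor1* libraries were the higher ones on both days, without overlap. *Cdh1* was 4.05-fold lower in the libraries labelled *siOct4* at day 3 (log2 fold change −2.02, standard error 0.13, limma adjusted p = 6.1e-05) and 1.60-fold lower at day 6 (−0.68, standard error 0.13, adjusted p = 0.0035).

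Among the plakins, *Dsp* (ENSMUSG00000054889, chromosome 13, 38151294 to 38198577) encodes desmoplakin, the obligate linker to keratin. It measured 7.89 and 7.99 log2-cpm in the *siNcor1* libraries and 7.35 and 7.83 in those labelled *siOct4* at day 3. By day 6 it stood at 7.37 and 7.50 in the *siNcor1* libraries and 7.82 and 7.88 in those labelled *siOct4*. The order of the knockdowns was thus opposite on the 2 days, without overlap on either. The log2 fold change was −0.35 at day 3 (standard error 0.15, limma adjusted p = 0.422) and 0.42 at day 6 (standard error 0.15, adjusted p = 0.0541), and neither passed the threshold. At day 6 it did pass with libraries centred on their medians (adjusted p = 0.0413), quantile normalisation (0.0333) or totals that omitted *Gm26917* (0.0476). With single libraries left out the day 6 value ran from 0.35 to 0.49. Reads of *Dsp* could include those of *Gm10129*, an unconfirmed transcript on the other strand inside the gene, since the counting strand is not given in the sources used here.

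*Ppl* (ENSMUSG00000039457, chromosome 16, 5086291 to 5132421) encodes periplakin, a plakin of the cornified envelope that also binds intermediate filaments. At day 3 it measured 3.82 and 4.04 log2-cpm in the *siNcor1* libraries and 3.30 and 3.36 in those labelled *siOct4*. At the later day it measured 5.30 and 5.70 in the *siNcor1* libraries and 3.67 and 3.44 in those labelled *siOct4*. Both *siNcor1* libraries at day 6 stood apart from the other 6. In CPM these were 45.5 ± 8.81 (SD, n = 2) and 11.6 ± 1.33, a 3.86-fold lower level (log2 fold change −1.95, standard error 0.18, limma adjusted p = 0.000128), which was the largest absolute log2 fold change of the 10 genes at day 6. At day 3 the difference was −0.60 (standard error 0.18, adjusted p = 0.168).

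*Evpl* (ENSMUSG00000034282, chromosome 11, 116220559 to 116238077) encodes envoplakin, the partner of periplakin. It had few reads at day 3, with 1.28 and 0.99 log2-cpm in the *siNcor1* libraries and 0.12 and 0.20 in those labelled *siOct4*, which stand for between 8 and 37 reads. By day 6 it had 3.06 and 3.08 in the *siNcor1* libraries and 3.79 and 2.91 in those labelled *siOct4*. The day 6 groups overlapped, with the *siOct4* replicates on either side of *siNcor1*. The day 6 difference was 0.28 (standard error 0.30, limma adjusted p = 0.493), and it turned to −0.16 (adjusted p = 0.728) without *siOct4* day 6 replicate 1. Whether *Ppl* and *Evpl*, whose products pair with each other, differed from one another in their response was not tested.

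Among the armadillo proteins, *Jup* (ENSMUSG00000001552, chromosome 11, 100368958 to 100397763) encodes plakoglobin, which binds both desmosomal and classical cadherins. At day 3 it measured 5.94 and 5.67 log2-cpm in the *siNcor1* libraries and 5.92 and 6.02 in those labelled *siOct4*. Its day 6 levels were 6.23 and 6.20 in the *siNcor1* libraries and 5.05 and 4.72 in those labelled *siOct4*. The groups overlapped at day 3, and at day 6 both libraries labelled *siOct4* were the lowest of all 8. The day 6 levels were 74.1 ± 1.33 CPM in the *siNcor1* libraries and 29.6 ± 4.83 CPM in those labelled *siOct4* (SD, n = 2), a 2.52-fold lower level (log2 fold change −1.33, standard error 0.14, limma adjusted p = 0.000291). At day 3 the difference was 0.17 (standard error 0.14, adjusted p = 0.816).

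*Pkp2* (ENSMUSG00000041957, chromosome 16, 16213318 to 16272712) encodes plakophilin 2, the plakophilin of simple epithelia and heart. It measured 6.36 and 6.63 log2-cpm in the *siNcor1* libraries and 6.38 and 6.08 in those labelled *siOct4* at day 3. By day 6 it stood at 6.05 and 6.03 in the *siNcor1* libraries and 6.66 and 6.78 in those labelled *siOct4*. The groups overlapped at day 3, and at day 6 the libraries labelled *siOct4* were the higher ones. The day 6 levels were 65.7 ± 0.61 CPM and 105 ± 6.25 CPM (SD, n = 2), 1.60 times as high in the libraries labelled *siOct4* (log2 fold change 0.68, standard error 0.14, limma adjusted p = 0.00429). *Pkp2* was thus the 1 gene of the 10 that passed the threshold in the direction opposite to *Cdh1* at day 6.

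*Pkp1* (ENSMUSG00000026413, chromosome 1, 135871395 to 135919207) encodes the plakophilin of stratified epithelia. It measured 3.48 and 2.92 log2-cpm in the *siNcor1* libraries and 2.61 and 2.61 in those labelled *siOct4* at day 3. At the later day it measured 4.34 and 3.89 in the *siNcor1* libraries and 5.34 and 4.43 in those labelled *siOct4*. As with *Dsp*, the order of the knockdowns was opposite on the 2 days, without overlap. The replicates of *siOct4* day 6 lay far apart (30.9 ± 13.3 CPM, SD, n = 2). The day 6 difference was 0.77 (standard error 0.28, limma adjusted p = 0.0565). It passed with median centring (0.0393), quantile normalisation (0.0381) or totals that omitted *Gm26917* (0.0447). The difference was 1.22 without *siOct4* day 6 replicate 2 and 0.32 without replicate 1. *Gm36938*, an unconfirmed transcript on the same strand, overlaps *Pkp1*.

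*Pkp3* (ENSMUSG00000054065, chromosome 7, 141078218 to 141090510) encodes plakophilin 3, which is found in most epithelial desmosomes. It had 7 and 6 reads in *siNcor1* and 3 and 0 reads in the libraries labelled *siOct4* at day 3. By day 6 it had 77 and 76 reads (2.70 and 2.71 log2-cpm) in *siNcor1* and 21 and 23 reads (1.24 and 1.06 log2-cpm) in the libraries labelled *siOct4*. The 0 allows up to 0.380 CPM, the value of 3 reads in that library, and counting error alone is covered. At day 3 the pooled *siNcor1* level was 2.94 times that of the libraries labelled *siOct4*, with a 95% counting interval from 0.808 to 16.1. At day 6 the libraries labelled *siOct4* were 2.94-fold lower (log2 fold change −1.55, standard error 0.45, limma adjusted p = 0.0227). Adjusted p was 0.102 without *siNcor1* day 6 replicate 1, 0.132 without replicate 2 and 0.0638 without *siOct4* day 6 replicate 2. The fitted values for low levels depend on the small constant the authors added before the logarithm.

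The desmosomal cadherins were *Dsg2* (ENSMUSG00000044393, chromosome 18, 20558074 to 20604521) and *Dsc2* (ENSMUSG00000024331, chromosome 18, 20030633 to 20059554), the pair found in simple epithelia. *Dsg2* measured 1.61 and 1.04 log2-cpm in the *siNcor1* libraries and 0.29 and 0.49 in those labelled *siOct4* at day 3. Its day 6 levels were 4.09 and 3.74 in the *siNcor1* libraries and 2.74 and 2.52 in those labelled *siOct4*. The *siNcor1* libraries were the higher ones on both days, without overlap, as for *Cdh1*. *Dsg2* was 2.43-fold lower in the libraries labelled *siOct4* at day 6 (log2 fold change −1.28, standard error 0.27, limma adjusted p = 0.00461) and had a difference of −0.93 (standard error 0.27, adjusted p = 0.147) at day 3. *Gm16090* lies antisense to *Dsg2*, and reads of both could not be separated without the counting strand.

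*Dsc2* measured 4.34 and 4.19 log2-cpm in the *siNcor1* libraries and 3.92 and 3.93 in those labelled *siOct4* at day 3. By day 6 it stood at 4.12 and 4.12 in the *siNcor1* libraries and 3.69 and 3.95 in those labelled *siOct4*. All 8 values lay within 1 log2 unit, and the *siNcor1* libraries were higher on both days. The differences were −0.34 (standard error 0.15, limma adjusted p = 0.455) at day 3 and −0.30 (standard error 0.15, adjusted p = 0.161) at day 6. *Dsc2* was the only gene of the 10 that passed the threshold in none of the 5 comparisons.

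*Perp* (ENSMUSG00000019851, chromosome 10, 18845020 to 18857073), a p53 and p63 target needed for desmosome assembly, measured 6.80 and 6.71 log2-cpm in the *siNcor1* libraries and 6.05 and 5.75 in those labelled *siOct4* at day 3. At the later day it measured 7.03 and 7.10 in the *siNcor1* libraries and 6.59 and 6.70 in those labelled *siOct4*. The libraries labelled *siOct4* were the lower ones on both days. The difference was −0.86 (standard error 0.13, limma adjusted p = 0.00953) at day 3 and −0.42 (standard error 0.13, adjusted p = 0.0273) at day 6. The day 3 call was lost without *siNcor1* day 3 replicate 1 (adjusted p = 0.103) or replicate 2 (0.129), without *siOct4* day 3 replicate 2 (0.108) and in a fit without the variance trend (0.0773). The day 6 call was lost without *siNcor1* day 6 replicate 1 (0.0848) or replicate 2 (0.172), without *siOct4* day 6 replicate 1 (0.0708) and without the trend (0.0741).

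**Figure D2:**
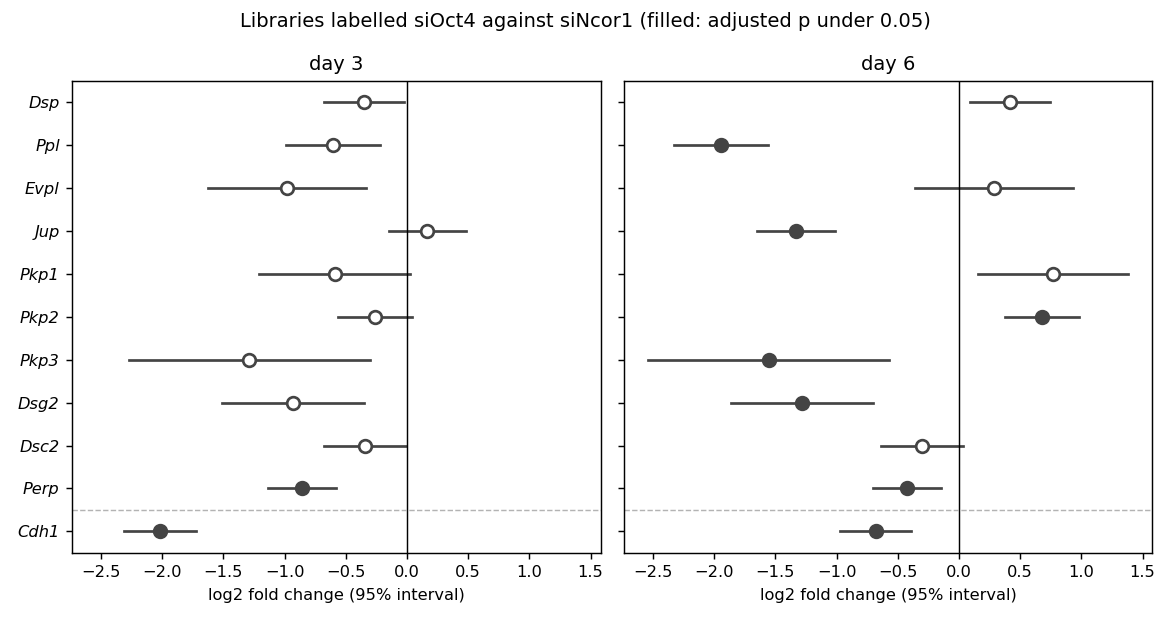
Log2 fold change of the libraries labelled *siOct4* against *siNcor1* for each gene (rows, with *Cdh1* below the dashed line) at day 3 (left) and day 6 (right). Points are the fitted values, bars are 95% intervals, and filled points have an adjusted p under 0.05. At day 3 only *Perp* and *Cdh1* are filled, and at day 6 *Ppl*, *Jup*, *Pkp3*, *Dsg2*, *Perp* and *Cdh1* are filled on the left of 0 and *Pkp2* on the right.

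At day 3 fewer desmosome genes passed the same test between the knockdowns, while *Cdh1* was 4.05-fold lower in the libraries labelled *siOct4*. Of the 10 genes 1 was lower (*Perp*) and 0 were higher, where 0.692% of all tested genes were lower and 0.375% were higher. At an unadjusted p under 0.05, 10.5% of all tested genes differed. Lower values in both libraries labelled *siOct4* than in both *siNcor1* libraries were found for 8 of the 10 genes, and overlapping values for *Jup* and *Pkp2*. Over all tested genes, 43.4% had no overlap in either direction. The median difference was −0.60 for the 10 genes and −0.02 for all genes.

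The changes from day 3 to day 6 share their libraries with the comparisons above. In *siNcor1*, 6 of the 10 genes rose (*Pkp3*, *Dsg2*, *Evpl*, *Ppl*, *Pkp1* and *Jup*) and 2 fell (*Dsp* and *Pkp2*). Of all tested genes, 13.8% rose and 20.9% fell there. *Pkp3* reached 1 CPM only through *siNcor1* at day 6, so that its place among the rising genes was in part set by the filter. Its call was kept in a fit without one. In the libraries labelled *siOct4*, 6 rose (*Pkp3*, *Evpl*, *Pkp1*, *Dsg2*, *Perp* and *Pkp2*) and 1 fell (*Jup*), where 22.2% of all tested genes rose and 30.5% fell. *Pkp3* rose by 3.63 (standard error 0.45, limma adjusted p = 0.000172) with *siNcor1* and 3.37 (0.45, adjusted p = 8.7e-05) with *siOct4*. With a pseudocount of 1 these were 2.41 and 1.49, and the latter was 2.71 without *siOct4* day 3 replicate 2, which held 0 reads, and 4.02 without replicate 1. In reads, the *siOct4* change was 44 against 3, a ratio of 15.6 with a 95% counting interval from 5.02 to 78.8. *Dsg2* rose by 2.59 (standard error 0.27, adjusted p = 5.2e-05) and 2.24 (0.27, adjusted p = 3.6e-05), and *Evpl* by 1.93 (0.30, adjusted p = 0.000632) and 3.19 (0.30, adjusted p = 6.4e-06). *Cdh1* rose by 2.24 (standard error 0.13, adjusted p = 1.6e-06) and 3.57 (0.13, adjusted p = 2.1e-08).

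*Dsp*, *Pkp2* and *Jup* changed over the days in differing directions. In *siNcor1*, *Dsp* fell by 0.50 (standard error 0.15, limma adjusted p = 0.0217) and *Pkp2* by 0.45 (0.14, adjusted p = 0.0241), while *Jup* rose by 0.41 (0.14, adjusted p = 0.0465). All 3 of these calls were fragile. *Dsp* gave adjusted p-values from 0.0602 to 0.148 when any 1 of the 4 *siNcor1* libraries was left out. *Pkp2* gave 0.207, 0.105 and 0.110 without *siNcor1* day 3 replicate 2, day 6 replicate 1 and day 6 replicate 2. *Jup* gave 0.309, 0.185 and 0.139 without those same libraries, and 0.0662 and 0.0667 without *siOct4* day 3 replicate 1 and replicate 2. With quantile normalisation *Dsp* (0.0920) and *Pkp2* (−0.26, adjusted p = 0.153) did not pass.

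In the libraries labelled *siOct4*, by contrast, *Jup* fell by 1.09 (standard error 0.14, limma adjusted p = 8.3e-05), and *Pkp2* rose by 0.49 (0.14, adjusted p = 0.0110). The *Pkp2* call was lost without *siOct4* day 3 replicate 2 (0.130), and its value was 0.74 with quantile normalisation. *Dsp* there had a value of 0.26 (0.15, adjusted p = 0.164). It passed with quantile normalisation (0.0150) and when *Gm26917* was dropped from the totals (0.0454). With single libraries left out its value ran from 0.022 (without *siOct4* day 3 replicate 1) to 0.50 (without replicate 2). *Ppl* rose by 1.57 (0.18, adjusted p = 9.1e-05) in *siNcor1* and had a value of 0.22 (0.18, adjusted p = 0.302) in the libraries labelled *siOct4*.

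For *Pkp1* the change was 0.92 (standard error 0.28, limma adjusted p = 0.0251) in *siNcor1*, lost without *siNcor1* day 3 replicate 2 (0.227) or day 6 replicate 1 (0.183), and 2.28 (0.28, adjusted p = 4.9e-05) in the libraries labelled *siOct4*. *Perp* rose by 0.74 (0.13, adjusted p = 0.000505) in the libraries labelled *siOct4* and had a value of 0.31 (0.13, adjusted p = 0.0801) in *siNcor1*. The latter passed without *siOct4* day 6 replicate 1 (0.0471) or replicate 2 (0.0472) and under 3 other scalings. *Dsc2* had values of −0.15 (0.15, adjusted p = 0.494) and −0.10 (0.15, adjusted p = 0.601). The median log2 fold change of the 10 genes was 0.66 in the *siNcor1* libraries and 0.62 in those labelled *siOct4*, beside −0.07 and −0.08 over all genes. The day 3 and day 6 libraries did not overlap for 10 of the 10 genes in *siNcor1* and for 8 of the 10 in the libraries labelled *siOct4*, beside 73.1% and 74.8% of all tested genes.

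**Figure D3:**
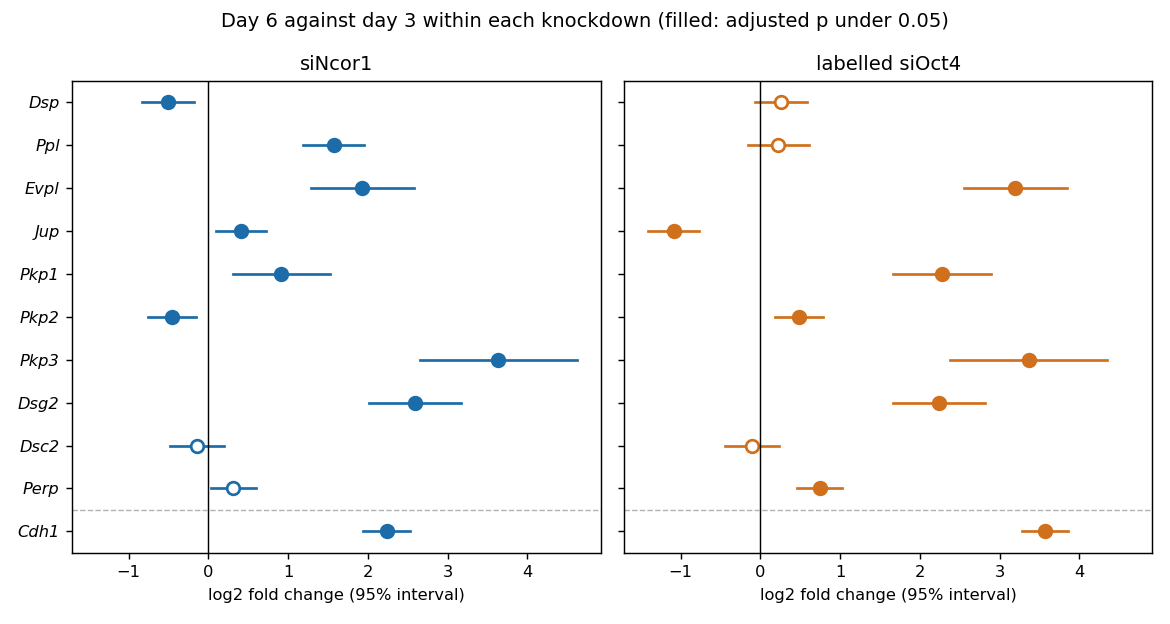
Log2 fold change from day 3 to day 6 in *siNcor1* (left) and in the libraries labelled *siOct4* (right), with 95% intervals and with filled points for an adjusted p under 0.05. *Cdh1* (below the dashed line), *Pkp3*, *Dsg2*, *Evpl* and *Pkp1* are right of 0 in both panels, *Jup* is right of 0 on the left panel and left of 0 on the right one, and *Dsp* and *Pkp2* show the reverse.

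Whether the difference between the knockdowns changed from day 3 to day 6 was tested as an interaction in the same model. It rose for 3 genes (*Pkp1*, *Pkp2* and *Dsp*) and fell for 2 (*Jup* and *Ppl*), where 7.77% of all tested genes had a positive and 12.9% a negative interaction. The values were −1.50 for *Jup* (standard error 0.20, limma adjusted p = 0.000996), −1.35 for *Ppl* (0.25, adjusted p = 0.0038), 0.94 for *Pkp2* (0.20, adjusted p = 0.00723), 0.77 for *Dsp* (0.21, adjusted p = 0.0265) and 1.36 for *Pkp1* (0.40, adjusted p = 0.0324). For *Cdh1* it was 1.34 (0.19, adjusted p = 0.00117), since its deficit in the libraries labelled *siOct4* was larger at day 3. *Jup* and *Ppl* thus lost ground in those libraries over the days in which *Cdh1* gained it. *Pkp2* was lost without *siNcor1* day 3 replicate 2 (adjusted p = 0.0507). *Dsp* was lost when any 1 *siNcor1* library was left out (0.0575 to 0.117) or *siOct4* day 3 replicate 1 (0.0897). *Pkp1* was lost without *siNcor1* day 3 replicate 1 (0.123) or replicate 2 (0.0536), *siNcor1* day 6 replicate 2 (0.131), *siOct4* day 3 replicate 1 (0.0707) or replicate 2 (0.0875), or *siOct4* day 6 replicate 1 (0.0585). *Evpl* had a value of 1.26 (0.42, adjusted p = 0.0517), which passed without *siOct4* day 6 replicate 2 (1.70, adjusted p = 0.00629), with median centring (0.0452), with totals that omitted *Gm26917* (0.0413) and with a replicate block (0.0372).

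To compare the genes with E-cadherin directly, the log2 ratio of each gene to *Cdh1* was taken within each library, which removes the library scaling. At day 3 all 10 genes had a higher ratio in the libraries labelled *siOct4*, by 0.73 (*Pkp3*, which overlapped) to 2.18 (*Jup*). *Cdh1* is the shared denominator of all 10 ratios. At day 6 the ratio of *Dsp* was −0.0029 and 0.20 in the *siNcor1* libraries and 1.11 and 1.28 in those labelled *siOct4*. The *Pkp2* ratio was −1.32 and −1.27 in the *siNcor1* libraries and −0.05 and 0.18 in those labelled *siOct4*. For these genes the libraries labelled *siOct4* were the higher ones.

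For *Jup* the day 6 ratio was −1.14 and −1.11 in the *siNcor1* libraries and −1.66 and −1.88 in those labelled *siOct4*. For *Ppl* it was −2.07 and −1.61 in the *siNcor1* libraries and −3.04 and −3.16 in those labelled *siOct4*. Here the *siNcor1* libraries were the higher ones. Relative to *Cdh1*, the libraries labelled *siOct4* were thus higher at day 6 for *Pkp1* (by 1.45), *Pkp2* (1.36), *Dsp* (1.10), *Evpl* (0.97), *Dsc2* (0.38) and *Perp* (0.26), and lower for *Ppl* (−1.27), *Pkp3* (−0.87), *Jup* (−0.65) and *Dsg2* (−0.60). *Perp* and *Dsc2* thus had lower means in those libraries and yet a higher ratio, as *Cdh1* was lower by more. In the exact permutation test (two-sided, 2 against 2 libraries), 19 of the 20 ratios gave p = 0.333, the smallest value this design allows, and *Pkp3* at day 3 gave 0.667. After adjustment over the 20 ratios the smallest was 0.351, so none of them could pass a threshold.

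**Figure D4:**
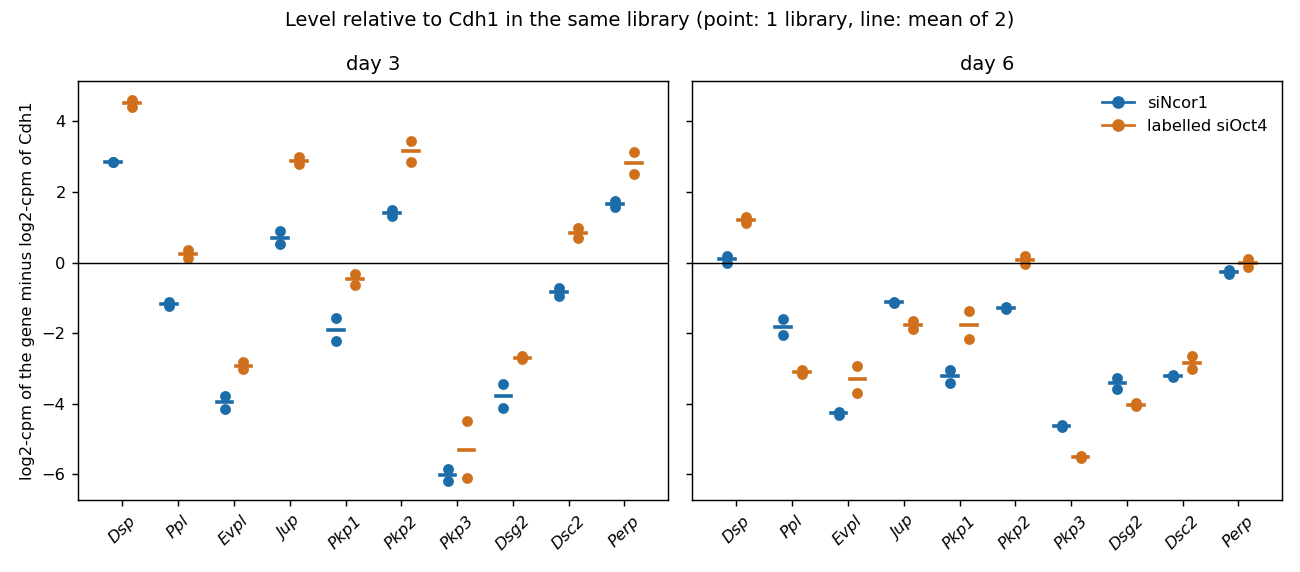
Level of each gene relative to *Cdh1* in the same library (log2-cpm of the gene minus log2-cpm of *Cdh1*) at day 3 (left) and day 6 (right). Points are libraries, lines are means of 2, blue is *siNcor1* and orange is the libraries labelled *siOct4*. At day 3 the orange means lie above the blue ones for all 10 genes, and at day 6 they lie below for *Ppl*, *Jup*, *Pkp3* and *Dsg2*.

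Levels of different genes were compared as CPM per kb of exon. *Perp* had the highest level of the 10 in all 4 groups, between 30.7 and 68.7 CPM per kb, and *Dsp* was the next, between 17.9 and 25.4. *Pkp2* followed, between 12.3 and 19.7. *Pkp3* was the lowest in 3 groups, between 0.0281 and 0.577, and *Evpl* was the lowest (1.29) in *siNcor1* at day 6. *Evpl* and *Dsg2* overlapped at day 3 in both knockdowns, *Pkp1* overlapped *Ppl* in *siNcor1* at day 3, *Dsc2* in *siNcor1* at day 6 and *Jup* in the libraries labelled *siOct4* at day 6, and other neighbours that overlapped were *Dsg2* with *Pkp3* and *Ppl* with *Evpl* at day 6. *Cdh1* stood at 7.48 CPM per kb in *siNcor1* at day 3, below *Jup*, and at 35.3 at day 6, above *Dsp*. In the libraries labelled *siOct4* it stood at 1.83 at day 3, below *Dsc2*, and at 22.0 at day 6, below *Dsp* (23.9).

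Within each family the make-up at day 6 differed between the knockdowns. *Ppl* was 25.5% ± 2.47 (SD, n = 2) of the summed plakin level per kb in the *siNcor1* libraries and 6.20% ± 0.67 in those labelled *siOct4*, and *Dsp* was 69.5% ± 2.04 and 87.7% ± 3.21. Of the armadillo genes, *Jup* was 39.7% ± 0.75 and 14.8% ± 1.33, and *Pkp2* was 42.3% ± 1.17 and 63.8% ± 8.46. Of the desmosomal cadherins, *Dsg2* was 35.6% ± 3.93 and 21.8% ± 4.02, up from 7.38% ± 1.52 and 4.75% ± 0.48 at day 3. The library values did not overlap between the knockdowns at day 6 for these shares. They are shares of RNA, given as a description without a test.

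**Figure D5:**
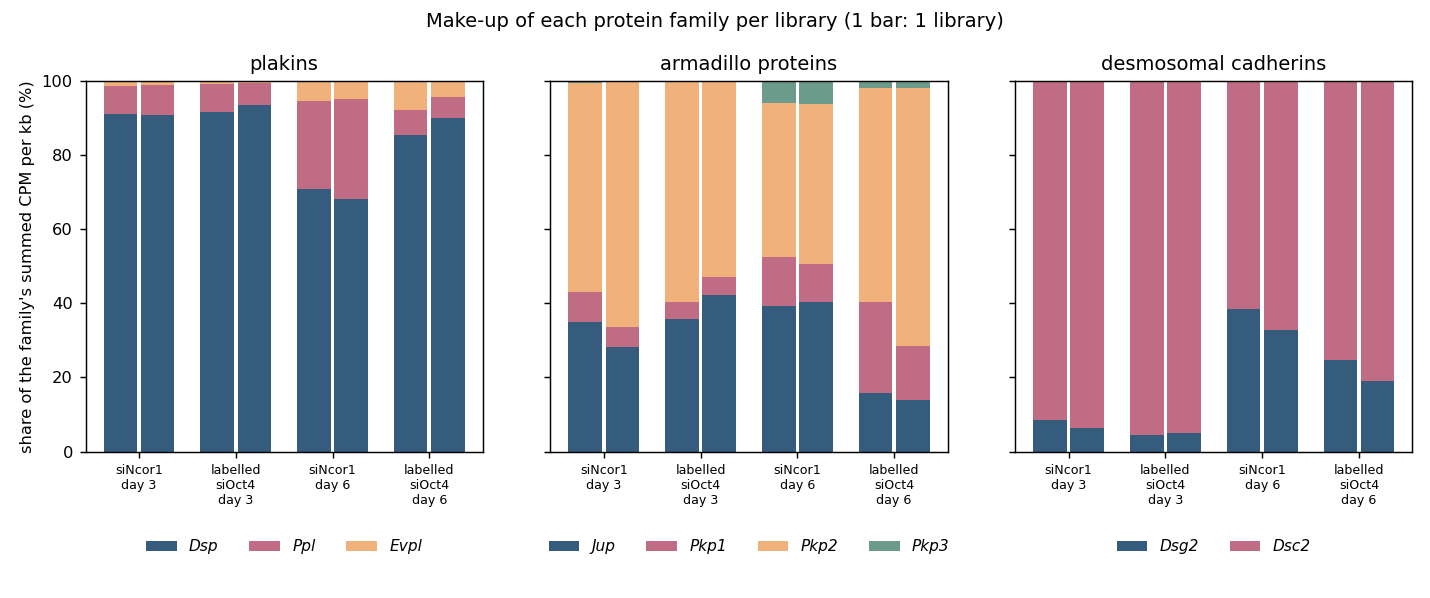
Share of each gene in the summed CPM per kb of its protein family (plakins, armadillo proteins, desmosomal cadherins), with 1 bar for each of the 8 libraries, in percent. At day 6 the *Ppl*, *Jup* and *Dsg2* segments are smaller in the libraries labelled *siOct4* (6.20%, 14.8% and 21.8%) than in *siNcor1* (25.5%, 39.7% and 35.6%).

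Other desmosome and plakin genes were taken from a list of 13, of which 8 were in the table and 5 were tested. At day 3, 0 of the 5 passed the threshold in either direction. At day 6, *Cdsn* (corneodesmosin, −0.93, limma adjusted p = 0.00178) and *Plec* (plectin, a linker of hemidesmosomes and of other cytoskeletal anchors, −0.91, adjusted p = 0.00273) were lower in the libraries labelled *siOct4* and *Pkp4* (a plakophilin-related catenin, 0.34, adjusted p = 0.0427) was higher. The cytolinkers *Dst* (−0.33, adjusted p = 0.121) and *Macf1* (−0.35, adjusted p = 0.0905) did not pass. Over all tested genes, 18.6% were lower and 12.1% were higher at day 6. From day 3 to day 6, 2 fell (*Pkp4* and *Macf1*) and 0 rose in *siNcor1*, and all 5 fell in the libraries labelled *siOct4*. Of all tested genes, 20.9% fell and 13.8% rose with *siNcor1*, and 30.5% fell and 22.2% rose with *siOct4*. *Dsg3* and *Dsg1b*, desmogleins of stratified epithelia, had 16 and 9 reads and 5 and 7 reads in *siNcor1* at day 6 and 0 to 2 reads in each of the other 6 libraries. *Dsc3* had 1 to 5 reads in every library. *Dsg1a*, *Dsg1c*, *Dsg4*, *Dsc1* and *Eppk1* were not analysed here.

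Genes of neighbouring structures were counted in the same way at day 6. Of all tested genes, 18.6% were then lower in the libraries labelled *siOct4* and 12.1% were higher. In the libraries labelled *siOct4*, 5 of 12 adherens junction genes were lower and 1 was higher, and the largest differences were those of *Nectin2* (a nectin, −1.25, limma adjusted p = 0.000335) and *Vcl* (vinculin, −1.06, adjusted p = 0.000652), followed by *Cdh1*. Of the 10 keratins listed, to which desmosomes attach, 5 were tested and these were lower, and those with the largest differences among the ones without overlap were *Krt7* (−3.85, adjusted p = 0.000142), *Krt18* (−3.08, adjusted p = 9.2e-06) and *Krt14* (−1.32, adjusted p = 0.0443). Of 4 tested cornified envelope genes, 3 were lower, namely *Tgm1* (transglutaminase 1, −1.15, adjusted p = 0.00678), *Sfn* (−1.07, adjusted p = 0.00327) and *Cstb* (−0.73, adjusted p = 0.00976). *Krt14* passed the filter only through *siNcor1* at day 6. Of 5 tested hemidesmosome genes 1 was lower and 0 were higher, near the share over all genes. The summed keratin level was 401 to 406 CPM in the *siNcor1* libraries and 135 to 156 CPM in those labelled *siOct4*.

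Regulators known to act on junction genes were counted too. At day 6, 6 of 12 tested were lower in the libraries labelled *siOct4* and 0 were higher, beside 18.6% and 12.1% of all tested genes. The largest differences were those of the epithelial factors *Elf3* (−1.66, limma adjusted p = 0.0260) and *Grhl2* (−1.32, adjusted p = 0.0304) and of the mesenchymal repressor *Zeb1* (−0.99, adjusted p = 0.000803), so that factors known for opposite actions on epithelial genes were both lower. At day 3 the epithelial splicing factor *Esrp1* was lower (−1.996, adjusted p = 0.00591). Of all tested genes, 0.692% were lower at that day. At day 3 the keratin, hemidesmosome, cornified envelope and adherens junction lists gave 1 gene lower each, which were *Krt8* (−1.68, adjusted p = 0.000816), the hemidesmosome integrin *Itgb4* (−1.53, adjusted p = 0.00805), *Tgm3* (−2.08, adjusted p = 0.00566) and, among adherens junction genes, *Cdh1*. From day 3 to day 6, 7 regulators rose and 1 fell in *siNcor1* and 6 rose and 4 fell in the libraries labelled *siOct4*. Of all tested genes, 13.8% rose and 20.9% fell with *siNcor1*, and 22.2% and 30.5% with *siOct4*. In number, the 4 regulators that fell with *siOct4* were near the latter share. The repressors *Zeb1*, *Zeb2*, *Snai1* and *Snai2* had means of 6.65, 6.90, 6.08 and 4.15 log2-cpm with *siOct4* at day 3. At day 6 these means were 5.09, 5.42, 4.89 and 3.15. *Grhl2* rose by 4.62 and 4.26 and *Esrp1* by 3.04 and 5.05. At day 3 *Grhl2* had 4 reads in each *siNcor1* library and 0 to 2 in those labelled *siOct4*. *Esrp1* then had 37 to 39 reads in the *siNcor1* libraries and 5 in each of those labelled *siOct4*. Values from so few reads depend on the small constant added before the logarithm.

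Markers of cell states moved with the knockdowns at day 6, when most of the desmosome calls were made. The summed level of 10 fibroblast markers, all in the table, was 4553 to 4925 CPM in the *siNcor1* libraries and 2506 to 2681 CPM in those labelled *siOct4*, where 7 of the 10 were lower. The summed level of 10 pluripotency markers was 111 to 120 CPM and 46.6 to 52.0 CPM, and no count is given for them, since 5 of the 8 tested passed the filter only through *siNcor1* at day 6. The 4 genes of the OSKM cassette, where viral and endogenous copies cannot be told apart, summed to 1114 to 1215 CPM and 3032 to 4434 CPM, and all 4 were higher. The 10 keratinocyte markers summed to 60.0 to 69.7 CPM and 30.6 to 36.6 CPM. Of these 10 genes, 7 are also in the lists above. Of the 4 tested, 2 were lower (*Sfn* and *Krt14*), and *Krt14* passed the filter only through *siNcor1* at day 6. The 8 trophoblast markers in the table summed to 55.1 to 58.2 CPM and 21.8 to 36.2 CPM, with 2 of 5 tested lower. Day 3 differed from this, since the fibroblast markers summed to 6270 to 6401 CPM in the *siNcor1* libraries and 8807 to 10360 CPM in those labelled *siOct4*, with 0 of 10 called. The pluripotency markers then summed to 8.66 to 8.99 CPM and 1.69 to 4.30 CPM, with 1 of 8 lower (*Nanog*, −2.03, limma adjusted p = 0.0491). Those 8 include the 5 that passed the filter only through *siNcor1* at day 6. At day 3, 0.692% of all tested genes were lower. *Nanog* then had 11 and 17 reads with *siNcor1* and 0 and 4 with *siOct4*, so its value depends on the small constant added before the logarithm. The part of these shifts in the desmosome differences was not tested.

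Markers of other cells that hold desmosomes or could accompany MEFs were summed too. At day 6 the 3 heart muscle markers in the table summed to 5.87 to 6.30 CPM in the *siNcor1* libraries and 6.79 to 6.87 CPM in those labelled *siOct4*, with 0 of 2 tested called. Most of this was *Ttn* (means 5.21 and 6.32 CPM), and *Tnnt2* and *Actc1* averaged at most 0.541 CPM. The 4 endothelial markers summed to 16.4 to 20.9 CPM and 16.7 CPM in both libraries, with 0 of 1 called. Nearly all of that was *Tek* (means 17.7 and 16.0 CPM), and *Pecam1*, *Cdh5* and *Kdr* averaged at most 0.461 CPM. The 3 leukocyte markers summed to 16.2 to 23.1 CPM and 13.2 to 17.4 CPM, with 0 of 3 called. No listed marker in the table was at 0 reads in all 8 libraries.

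The genes whose pattern over the 8 libraries was most like that of 3 of the desmosome genes were found by the root mean square difference of log2-cpm values centred per gene. For *Dsp* these were *Dock9* (0.083), *Cdc14a* (0.091) and *Plekhh1* (0.108). For *Jup* they were *Nectin2* (0.105), *Csrnp1* (0.111) and *Igdcc4* (0.125). For *Pkp2* they were *Zfp422* (0.068), *Cep78* (0.069) and *Cinp* (0.070). None of the other 9 desmosome genes was among the 3 most like any of them.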

How the data were processed

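The authors aligned paired reads with STAR 2.5.2b to mm10 (GRCm38), and the authors deposited log2-cpm values made with edgeR 3.20.9, per the labels and the paper's methods. The tool that counted reads on genes and the counting strand are not given in the sources used here. The authors' own DESeq2 tests were against a control and were not used. Subtracting the constant added before the logarithm gave whole reads (tolerance 0.1 read) for 100% of the values and thus the depth and CPM.

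Differences were tested with limma 3.58.1 in R 4.3.3 (lmFit, eBayes with a trend), on the deposited log2 values of all 8 libraries, over the 13866 genes whose mean reached 1 CPM, with Benjamini-Hochberg adjustment at 0.05. The script was tested on simulated data. With 2 libraries a group, p-values measure the spread between these samples, and ratios to *Cdh1* were tested with exact permutation. The replicates of a group were not copies of one library, as their counts differed beyond sampling (chi-square divided by its degrees of freedom, 8.44 to 18.7). Replicate numbers come from the sample titles, and the correlations of same-numbered libraries' deviations were −0.040 to 0.281, so the numbers were not taken to pair them. Gene coordinates and exon lengths were from GENCODE M21 (18969 of 18990 genes matched). The genes and lists were chosen with earlier results of these data known. Named genes were the 10, *Cdh1*, the other desmosome and plakin genes, of each other list up to 3 genes with the largest change among those called without overlap, *Pou5f1* and *Ncor1*, and the 3 most like *Dsp*, *Jup* and *Pkp2*. Outside that rule, the ZEB and SNAI repressors and the endothelial and heart muscle markers were named beside a count or a sum. The 20 alternatives were fits without the trend, other scalings, filters and pseudocounts, a replicate block, only the groups compared, voom on the recovered reads and each library left out. Figures were drawn with matplotlib 3.10.9. Some results of the gene lists are not reported here.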

Additional observations from a re-analysis of the deposited data

Results flagged for a closer look

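For 5 of the 10 desmosome and plakin genes and for *Cdh1*, the difference between the knockdowns was itself different on the 2 days (interaction term in limma, adjusted p under 0.05). Of all tested genes, 7.77% had a positive and 12.9% a negative interaction. The change of the log2 difference from day 3 to day 6 was 1.36 for *Pkp1*, 1.34 for *Cdh1*, −1.50 for *Jup*, 0.77 for *Dsp*, −1.35 for *Ppl* and 0.94 for *Pkp2*. For *Dsp* and *Pkp1* the libraries labelled *siOct4* went from below to above *siNcor1*, although neither day alone passed the threshold, and leaving out single libraries took both interactions above it.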

How the results depend on the processing

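Of 1074 refitted log2 fold changes of the 10 genes and *Cdh1*, 992 kept their direction and their side of the threshold, 49 lost the call, 25 gained it and 8 turned in sign, none of the latter past the threshold. *Jup*, *Ppl*, *Dsg2* and *Pkp2* at day 6, and *Cdh1* in all comparisons, kept their calls in every alternative run that tested them. *Dsg2* was not tested at a minimum of 10 CPM. A group left with 1 library was assumed to vary like the others. With single libraries left out, the number of the 10 genes called was 0 to 1 at day 3 (1 with all libraries), 4 to 7 at day 6 (6), 4 to 9 for the change over the days with *siNcor1* (8), 7 to 7 for that with *siOct4* (7) and 2 to 6 for the interaction (5). Without the variance trend these were 0 at day 3, 4 for the days in *siNcor1* and 3 for the interaction. At a minimum of 10 CPM, where 7 of the 10 were tested, the days gave 5 with *siNcor1* and 4 with *siOct4*. With a replicate block they were 1, 8, 8, 7 and 6 in the order above, with *Dsp* (adjusted p = 0.0248) and *Pkp1* (0.0128) added at day 6 and *Evpl* (0.0372) for the interaction. The signs that turned were those of *Evpl* at day 6 (−0.16 to 0.73 with single libraries left out), of *Dsc2* over the days in *siOct4* (0.033 with totals that omit *Gm26917*, −0.23 to 0.025 with libraries left out) and in the interaction (−0.0100 without normalisation factors, −0.083 to 0.17), of *Pkp3* in the interaction (0.17 by voom, −0.92 to 0.39) and of the day 3 ratio of *Pkp3* to *Cdh1* (−0.074 to 1.54). Over all genes, the 148 calls at day 3 became 43 without the trend, 81 at 10 CPM, 222 with the block and 3 to 375 with libraries left out (3 without either *siNcor1* day 3 library), the 4251 at day 6 became 1398 to 4669, the 4819 in *siNcor1* 2360 to 5954, and the 2867 interactions 1925 without the trend and 1009 to 3667. Without normalisation factors the day 6 calls were 1171 higher and 3090 lower, beside 1678 and 2573, and with totals that omit *Gm26917* the day calls in *siOct4* were 3812 higher and 3444 lower, beside 3079 and 4233, with the median of all genes moving from −0.08 to 0.06. The other causes were not tested. Low counts limit *Pkp3*, *Dsg2* and *Evpl* at day 3.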
